A study of Arabidopsis thaliana with 9 samples.

Results

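The transcripts of 10 Arabidopsis thaliana C2H2 zinc finger genes, ZAT5, ZAT6, ZAT7, ZAT8, ZAT10, ZAT11, ZAT12, AZF1, AZF2 and AZF3, were followed in leaves of 2 HAC1 insertion mutants and of the wild type. The genes were taken by their locus identifiers and are 10 of the 33323 genes in the count table. HAC1 is a CBP-type histone acetyltransferase, an enzyme that helps to activate transcription, and the study looked for potential targets of it. The groups were hac1-1 (insertion line SALK_080380), hac1-2 (insertion line SALK_136314) and Col-0 wild type (WT), with 3 RNA sequencing libraries each. Both mutants are in the Col-0 background, received no treatment, and each allele is represented by a single insertion line. Whole leaves at positions 12 to 14 were taken on day 49 after sowing. All 3 groups had 20 h of light and 4 h of dark, at 28 umol photons per square metre and second. The labels call WT leaves senescent and leaves of both mutants non-senescent, so genotype and senescence state cannot be told apart. Only 1 biological replicate is named in the design text. The p-values therefore reflect the spread between these libraries, which may be technical.

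Proteins of this family carry a small number of zinc fingers with a QALGGH sequence in the DNA-binding helix, and most also hold a short EAR motif that recruits corepressors. They act mainly as transcriptional repressors, and their own transcripts accumulate quickly after touch, wounding, salt, cold, drought, strong light or oxidative stress. ZAT10, also named STZ, was found through salt tolerance, and ZAT12, also named RHL41, through responses to strong light and hydrogen peroxide. ZAT6 has been tied to phosphate homeostasis and to cadmium tolerance, and ZAT7 to salt tolerance. ZAT11 has been tied to nickel tolerance and cell death, and AZF1, AZF2 and AZF3 to water deficit, with AZF1 and AZF2 acting as repressors in abscisic acid responses. ZAT8 is the neighbour and closest relative of ZAT7.

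Library totals ran between 5750097 and 9461600 counts, and 16560 genes passed a filter on low counts and were tested. Levels are given as CPM, the count scaled to a common library size with TMM factors, and a gene was called at an edgeR adjusted p under 0.05. The level that 0 counts could hide, taken as 3 counts, was 0.317 to 0.522 CPM and covers counting error only. HAC1 itself stood at 65.1 ± 7.11 CPM in hac1-1, 135 ± 14.5 CPM in hac1-2 and 155 ± 10.5 CPM in WT (SD, n = 3 each). It fell in hac1-1 (log2 fold change -1.26, SE 0.12, edgeR adjusted p = 1.22e-08) and was not called in hac1-2 (-0.20, SE 0.11, edgeR adjusted p = 0.311). The count therefore checks the hac1-1 label but not the hac1-2 label, and every direction for hac1-2 rests on its label. The share of counts in 18S ribosomal RNA genes was 12.1 to 21.0%, highest in hac1-1 replicate 2. Among the leaf cell markers, the 4 mesophyll genes (RBCS1A, LHCB1.3, CA1 and LHB1B1) summed to 5625 to 7020.5 CPM in hac1-1, 8448 to 8688 CPM in hac1-2 and 5924 to 6636 CPM in WT. LHCB1.3 made up most of these sums and was called higher in hac1-2 (log2 fold change 0.52, edgeR adjusted p = 0.000927) but not in hac1-1 (0.06, edgeR adjusted p = 0.77). The other 3 fell in hac1-1, by 0.45 for RBCS1A (edgeR adjusted p = 0.00427), 1.12 for CA1 (7.23e-05) and 0.72 for LHB1B1 (0.00125) on the log2 scale, and CA1 also fell in hac1-2, by 0.72 (edgeR adjusted p = 0.00676). Of 3 meristem and flower markers, all 3 had 0 counts throughout hac1-1, and 2 had 0 counts throughout hac1-2 and throughout WT.

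Of the 10 genes, 9 passed the count filter, and ZAT11 did not. ZAT11 had 0, 1 and 0 counts in the hac1-1 libraries, 0, 2 and 0 in hac1-2, and 0, 2 and 6 in WT. Only WT replicate 3 exceeded 3 counts, so differences in ZAT11 were not detectable at this depth. AZF3 passed the filter through 1 hac1-1 library and 2 WT libraries, with 79 counts over all 9 libraries.

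Coordinates and sequences come from the TAIR10.1 RefSeq reference. Each of the 10 genes has 1 exon. ZAT7 (AT3G46090, chromosome 3, 16925881 to 16926883) and ZAT8 (AT3G46080, chromosome 3, 16922514 to 16923299) lie near each other on the minus strand, with only the locus AT3G46086 between them. Their transcripts are 83.3% identical over 809 aligned bases, and where the differences lie was not examined. How the authors treated reads that match both genes is not given in the sources used here. ZAT6 (AT5G04340, chromosome 5, 1216058 to 1217362, minus strand) and ZAT10 (AT1G27730, chromosome 1, 9648021 to 9649323, minus strand) are 71.0% identical over 930 bases. ZAT12 (AT5G59820) spans 24102814 to 24103794 on the plus strand of chromosome 5, and ZAT5 (AT2G28200) spans 12023940 to 12025370 on the plus strand of chromosome 2. ZAT11 (AT2G37430) lies on the plus strand of chromosome 2, from 15706285 to 15707224. AZF1 (AT5G67450, chromosome 5, 26918765 to 26920179), AZF2 (AT3G19580, chromosome 3, 6802903 to 6804296) and AZF3 (AT5G43170, chromosome 5, 17330945 to 17331646) are on minus strands. AZF3 overlaps AT5G43160 on the opposite strand, with 318 shared bases. The strand used for counting is not given, so AZF3 counts are uncertain.

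The 250 bases upstream of the annotated start are shown for the pair ZAT8 and ZAT7, whose transcripts were furthest below WT among the called members, for ZAT12, which differed most between the mutants, for the abundant ZAT6 and ZAT10, and for ZAT5, which was not called in any comparison. Each is written 5′ to 3′ on the strand of its gene, with capitals marking matches on either strand to TTGAC (the core of the W box bound by WRKY factors), GAANNTTC (a heat shock element form), GCCGCC (the GCC box bound by ERF factors), CCGAC (the core bound by CBF and DREB factors) or ACGTG (the core of the abscisic acid response element). CACGTG (the G box, which contains ACGTG) and CGCGTT (a core bound by CAMTA factors) were also searched and are absent from these 10 windows. Other forms of the CAMTA core were not searched, so this absence covers CGCGTT alone. The positions are chr3:16923300-16923549, minus strand, for ZAT8, chr3:16926884-16927133, minus strand, for ZAT7, chr5:24102564-24102813, plus strand, for ZAT12, chr5:1217363-1217612, minus strand, for ZAT6, chr1:9649324-9649573, minus strand, for ZAT10 and chr2:12023690-12023939, plus strand, for ZAT5.
ZAT8: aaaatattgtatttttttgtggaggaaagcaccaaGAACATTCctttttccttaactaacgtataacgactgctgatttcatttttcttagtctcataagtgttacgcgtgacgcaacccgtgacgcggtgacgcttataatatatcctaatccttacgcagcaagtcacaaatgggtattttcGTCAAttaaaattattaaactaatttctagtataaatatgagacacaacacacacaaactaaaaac
ZAT7: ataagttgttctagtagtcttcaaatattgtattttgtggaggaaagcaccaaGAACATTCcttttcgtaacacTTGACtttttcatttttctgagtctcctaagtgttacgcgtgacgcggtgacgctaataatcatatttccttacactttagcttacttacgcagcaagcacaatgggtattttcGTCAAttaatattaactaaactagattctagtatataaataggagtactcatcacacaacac
ZAT12: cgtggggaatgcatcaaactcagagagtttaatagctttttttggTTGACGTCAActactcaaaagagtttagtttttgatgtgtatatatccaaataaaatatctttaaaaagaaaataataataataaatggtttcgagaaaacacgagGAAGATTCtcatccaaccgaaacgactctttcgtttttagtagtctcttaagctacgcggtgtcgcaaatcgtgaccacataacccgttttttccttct
ZAT6: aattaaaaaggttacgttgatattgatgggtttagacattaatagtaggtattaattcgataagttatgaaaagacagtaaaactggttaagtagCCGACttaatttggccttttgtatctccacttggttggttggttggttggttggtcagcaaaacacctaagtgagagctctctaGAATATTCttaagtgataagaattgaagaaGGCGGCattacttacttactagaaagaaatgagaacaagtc
ZAT10: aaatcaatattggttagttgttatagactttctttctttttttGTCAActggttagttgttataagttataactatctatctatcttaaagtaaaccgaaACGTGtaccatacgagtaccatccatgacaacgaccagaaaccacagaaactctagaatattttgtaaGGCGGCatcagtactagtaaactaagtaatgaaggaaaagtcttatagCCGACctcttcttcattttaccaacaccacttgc
ZAT5: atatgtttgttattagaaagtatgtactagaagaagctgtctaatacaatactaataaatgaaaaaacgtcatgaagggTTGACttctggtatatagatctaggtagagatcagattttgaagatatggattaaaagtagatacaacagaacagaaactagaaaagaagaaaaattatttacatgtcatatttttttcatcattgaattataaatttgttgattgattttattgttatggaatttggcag

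TTGAC occurred upstream of 8 of the 10 genes, against 44.9% of 27443 promoters of the same length. GAANNTTC occurred upstream of 5 (ZAT6, ZAT7, ZAT8, ZAT11 and ZAT12), against 9.55% of promoters. GCCGCC occurred upstream of ZAT6 and ZAT10, against 1.87% of promoters, and CCGAC upstream of ZAT6, ZAT10 and AZF2, against 12.0%. ACGTG was upstream of ZAT10 alone, against 22.9% of promoters. CACGTG and CGCGTT are in 6.49% and 2.59% of promoters. ZAT7 and ZAT8 shared the 8 letters GAACATTC, at -197 in ZAT7 and -215 in ZAT8 from the start, and a TTGAC match at -62 in ZAT7 and -66 in ZAT8. Their upstream windows were 68.8% identical, the highest of the 45 pairs of members (median 51.0%, lowest 45.9%). Such matches describe the letters and do not show binding.

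Levels between genes were compared on FPKM, which divides the count by the library total and a gene length, as the authors deposited it. ZAT10 had the highest mean level in all 3 genotypes, at 206 ± 15.7 FPKM in hac1-1, 243 ± 24.9 FPKM in hac1-2 and 276 ± 38.0 FPKM in WT (SD, n = 3 each). In WT it stood at the 98.4 percentile of the 18168 genes with an FPKM value. In WT the order of mean FPKM levels was ZAT10, ZAT6, ZAT12, AZF2, ZAT7, ZAT8, AZF1, ZAT5 and AZF3. There the ranges of ZAT10 and ZAT6, of ZAT6 and ZAT12, of ZAT7 and ZAT8, and of AZF1 and ZAT5 overlapped. The order in hac1-2 was the same except that ZAT5 came before AZF1, and there ZAT10, ZAT6 and ZAT12 overlapped in turn, as did ZAT5 and AZF1. In hac1-1 AZF2 (120.4 ± 16.3 FPKM) came before ZAT12 (117 ± 11.5 FPKM) with overlapping ranges, and ZAT8 (20.2 ± 3.48 FPKM) overlapped ZAT5 (17.9 ± 1.64 FPKM), which stood above AZF1 (7.65 ± 2.78 FPKM). The FPKM levels of the 9 genes with a value summed to 682 to 713 in hac1-1 libraries, 914 to 975 in hac1-2 and 1133 to 1256.5 in WT. ZAT6, ZAT10, ZAT12 and AZF2 made up 87.9 to 89.8% of that sum in hac1-1, 87.7 to 88.4% in hac1-2 and 78.5 to 83.5% in WT. The gene length behind the FPKM of ZAT8 was 495 bases, its coding length alone, against 635 bases for ZAT7, which exceeds its coding length of 507 bases. The FPKM order of that pair therefore depends on the lengths used.

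**Figure D1:**
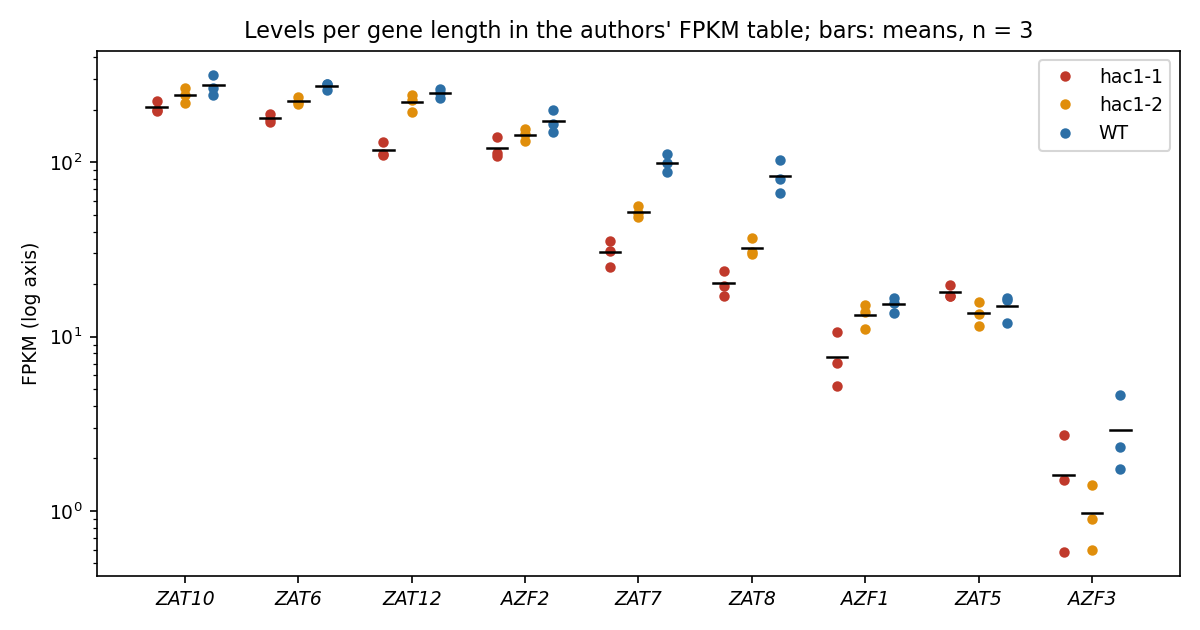
FPKM of each member listed in the authors' FPKM table (log axis), with 1 point per library in hac1-1, hac1-2 and WT and a bar at the mean of the 3 libraries. ZAT10, ZAT6, ZAT12 and AZF2 form the upper group in each genotype, and AZF3 lies lowest; ZAT11 is not listed in that table.

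In hac1-1, 7 of the 9 tested members fell against WT and none rose. Among all 16560 tested genes, 9.12% were called lower in this comparison and 12.6% in either direction. The same 7 were those whose hac1-1 libraries all lay below all WT libraries, a pattern that 15.7% of all genes showed. The falls were 4.29-fold for ZAT8, 3.36-fold for ZAT7, 2.19-fold for ZAT12, 2.10-fold for AZF1, 1.58-fold for ZAT6, 1.47-fold for AZF2 and 1.38-fold for ZAT10. The first 4 were at least 2-fold lower and called, as were 3.8% of all genes. The median log2 fold change of the 9 members was -0.90, against 0.02 for all genes. This median is the value of AZF3 (SE 0.62), which was not called and is near the detection limit.

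In hac1-2, 3 of the 9 tested members, ZAT8, ZAT7 and ZAT6, fell against WT and none rose, where 7.44% of all tested genes were called lower and 10.3% in either direction. These 3 were also lower in hac1-1, and 5.31% of all genes were called lower in both mutants, which share the WT libraries. All hac1-2 libraries lay below all WT libraries for 6 members (ZAT6, ZAT7, ZAT8, ZAT12, AZF2 and AZF3), and 15.5% of all genes did so. AZF3 is near the detection limit and reached the filter cutoff in 0 hac1-2 libraries, 1 hac1-1 library and 2 WT libraries. Its place among the 6 therefore adds no support. The median log2 fold change of the members was -0.32, against 0.02 for all genes. Bulk leaf RNA does not separate fewer cells of a type from less RNA per cell. Among all called genes the share that was lower in hac1-2 was 72.3%, but 57.8% when libraries were scaled by their totals alone and 62.0 to 63.6% on FPKM values. In hac1-1 these shares were 72.2% and, with library totals alone, 62.5%.

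**Figure D2:**
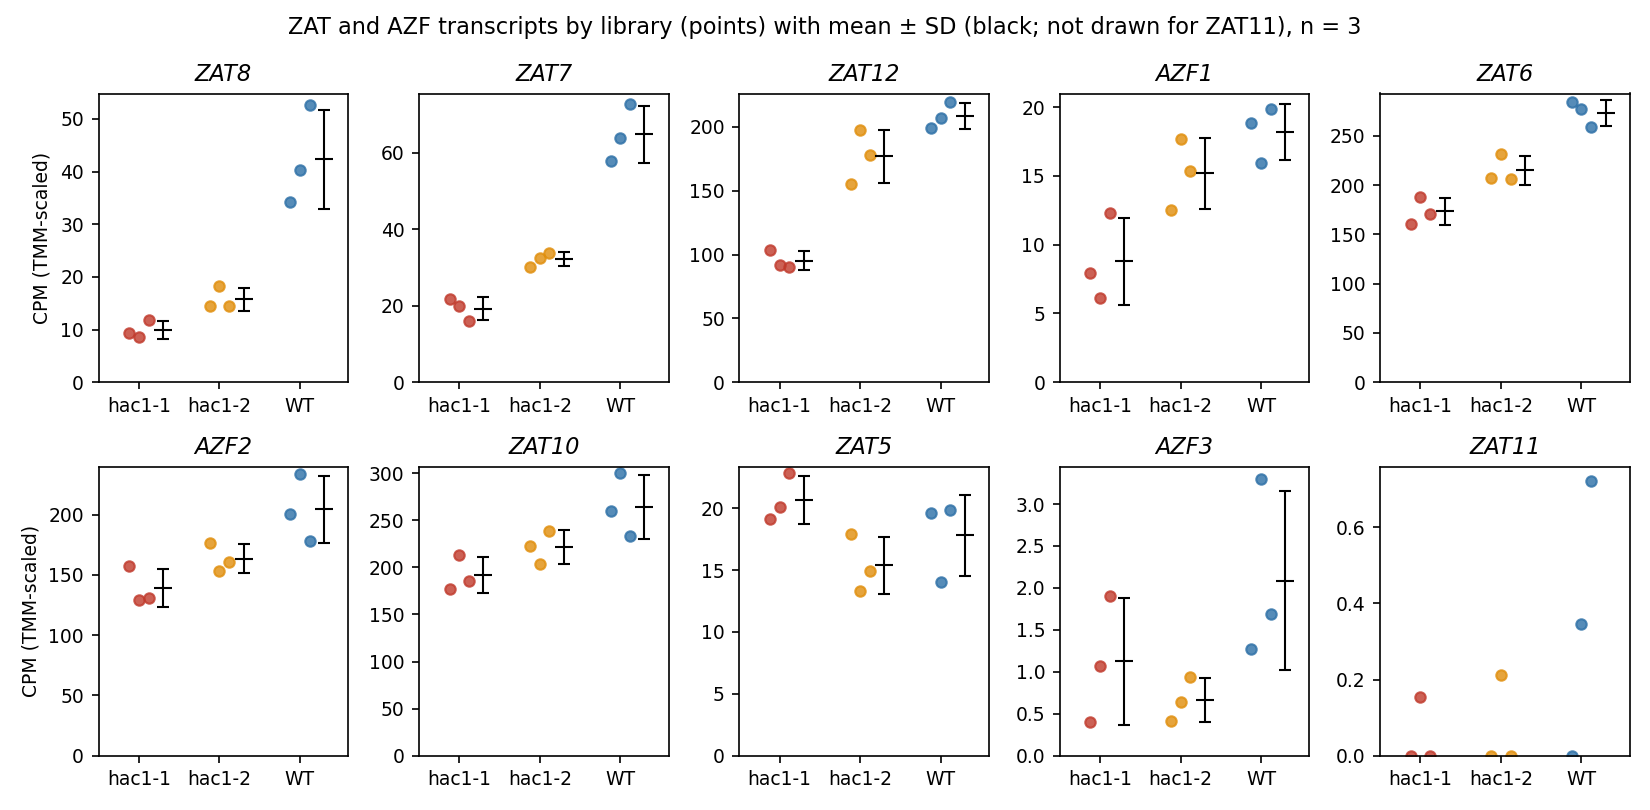
CPM of the 10 members in each library, with hac1-1, hac1-2 and WT side by side in each panel; points are libraries and black marks are means ± SD (n = 3, not drawn for ZAT11). The hac1-1 libraries lie below all WT libraries for 7 members. The hac1-2 libraries of ZAT6, ZAT7, ZAT8 and ZAT12 lie between those of hac1-1 and WT without overlap.

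ZAT8 and ZAT7, the neighbouring pair, were furthest below WT in both mutants among the called members. ZAT8 had 9.43, 8.59 and 11.8 CPM in hac1-1, 14.4, 18.3 and 14.4 CPM in hac1-2, and 34.2, 40.2 and 52.6 CPM in WT. The 3 genotypes did not overlap, with hac1-1 lowest and WT highest. ZAT8 fell by 2.10 on the log2 scale in hac1-1 (edgeR adjusted p = 5.88e-09, SE 0.19) and by 1.43 in hac1-2 (edgeR adjusted p = 1.9e-06, SE 0.18), 2.69-fold lower than WT.

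ZAT7 had 21.8, 19.9 and 15.9 CPM in hac1-1, 30.3, 32.5 and 33.9 CPM in hac1-2, and 57.9, 64.0 and 72.7 CPM in WT. It showed the same order without overlap. ZAT7 fell by 1.75 on the log2 scale in hac1-1 (edgeR adjusted p = 1.34e-09, SE 0.15) and by 1.01 in hac1-2 (edgeR adjusted p = 7.91e-06, SE 0.14), 2.01-fold lower than WT.

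ZAT12, known from light and peroxide responses, was lower in hac1-1 than in either other genotype. It had 104, 91.7 and 89.8 CPM in hac1-1, 155, 197 and 178 CPM in hac1-2, and 199, 207 and 219.5 CPM in WT. Every hac1-1 library lay far below the lowest hac1-2 library, while the highest hac1-2 library came close to the lowest WT library. ZAT12 fell by 1.13 on the log2 scale in hac1-1 (edgeR adjusted p = 3.26e-08, SE 0.11). Its log2 fold change in hac1-2 was -0.24 (edgeR adjusted p = 0.196, SE 0.11), with a 95% interval of -0.45 to -0.02 that takes no account of multiple testing.

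ZAT6 and ZAT10 had the highest mean CPM of the members in hac1-1, and differed less from WT there than ZAT8, ZAT7, ZAT12 and AZF1. ZAT6 had 161, 188 and 171 CPM in hac1-1, 207, 232 and 206 CPM in hac1-2, and 285, 277 and 259 CPM in WT. The 3 genotypes did not overlap. ZAT6 fell by 0.66 on the log2 scale in hac1-1 (edgeR adjusted p = 5.76e-05, SE 0.11) and by 0.35 in hac1-2 (edgeR adjusted p = 0.032, SE 0.10). The hac1-2 call was lost in 8 of 20 other settings, with the adjusted p between 0.00843 and 0.13 over the 20. It was lost without hac1-2 replicate 1 (edgeR adjusted p = 0.125) or 3 (0.128), without WT replicate 1 (0.13) or 2 (0.0697), with library totals alone (0.0917) and on the 3 FPKM scales (0.0823 to 0.0886 by limma).

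ZAT10 had 177, 213 and 185 CPM in hac1-1, 223, 203 and 239 CPM in hac1-2, and 259.7, 300.4 and 233 CPM in WT. The hac1-1 libraries lay below all WT libraries, and the hac1-2 range overlapped both. ZAT10 fell by 0.46 on the log2 scale in hac1-1 (edgeR adjusted p = 0.00635, SE 0.11) and was not called in hac1-2 (-0.25, SE 0.11, edgeR adjusted p = 0.18).

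Of the AZF genes, AZF1 and AZF2 were lower in hac1-1 and none was called in hac1-2. AZF2 had 157, 129 and 131 CPM in hac1-1, 176, 153 and 161 CPM in hac1-2, and 201, 234 and 178 CPM in WT. Both mutants lay below WT without overlap, though hac1-2 replicate 1 was only just below WT replicate 3. AZF2 fell by 0.55 on the log2 scale in hac1-1 (edgeR adjusted p = 0.00152, SE 0.12). Its log2 fold change in hac1-2 was -0.32 (edgeR adjusted p = 0.081, SE 0.12), and it was called without WT replicate 3 (edgeR adjusted p = 0.0481) and with the replicate number as a block (edgeR adjusted p = 0.0381).

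AZF1 had 7.97, 6.14 and 12.3 CPM in hac1-1, 12.5, 17.7 and 15.3 CPM in hac1-2, and 18.9, 16.0 and 19.9 CPM in WT. The hac1-1 libraries lay below both other genotypes, and hac1-2 overlapped WT. AZF1 fell by 1.07 on the log2 scale in hac1-1 (edgeR adjusted p = 0.00142, SE 0.23). The hac1-2 libraries gave a log2 fold change of -0.26 (edgeR adjusted p = 0.519, SE 0.21), with a 95% interval of -0.68 to 0.15. AZF3, near the detection limit, had 3, 7 and 11 counts in hac1-1, 3, 6 and 7 in hac1-2, and 9, 19 and 14 in WT. Its log2 fold changes of -0.90 in hac1-1 (edgeR adjusted p = 0.403, SE 0.62) and -1.60 in hac1-2 (edgeR adjusted p = 0.124, SE 0.64) were not called.

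ZAT5 was the only tested member with a positive log2 fold change against WT in hac1-1. It had 19.1, 20.1 and 22.9 CPM in hac1-1, 17.9, 13.3 and 14.9 CPM in hac1-2, and 19.6, 14.0 and 19.9 CPM in WT. The ranges of both mutants overlapped that of WT, while hac1-1 and hac1-2 lay apart. The log2 fold change was 0.20 in hac1-1 (95% interval -0.15 to 0.56, edgeR adjusted p = 0.54) and -0.23 in hac1-2 (95% interval -0.58 to 0.13, edgeR adjusted p = 0.527).

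**Figure D3:**
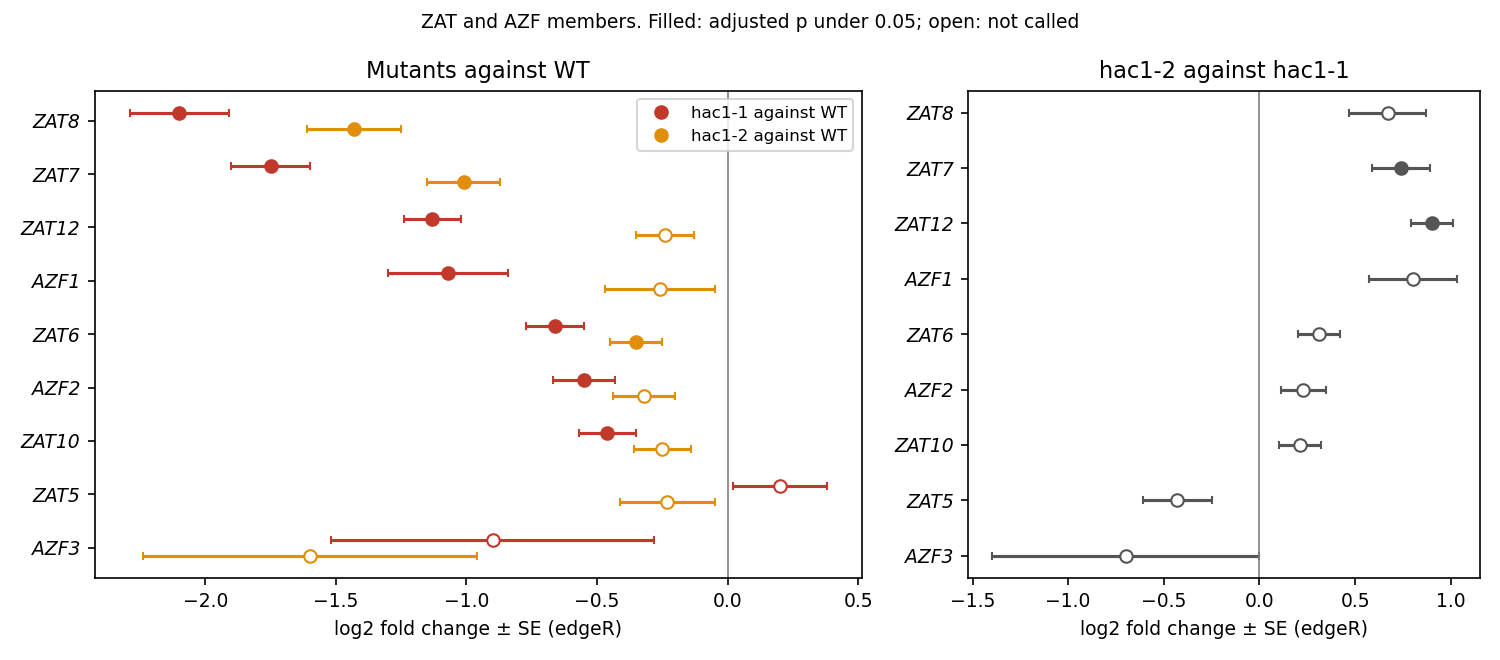
Log2 fold change ± SE from edgeR for the 9 tested members, for hac1-1 and hac1-2 against WT (left) and for hac1-2 against hac1-1 (right). Filled points have an adjusted p under 0.05: 7 members in hac1-1 and 3 in hac1-2 against WT, and ZAT7 and ZAT12 in hac1-2 against hac1-1.

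Set against each other, the mutants differed in 2 members. In hac1-2 against hac1-1, ZAT12 and ZAT7 were called higher and none lower, where 1.86% of all tested genes were called higher, 0.978% lower and 2.84% in either direction. ZAT12 averaged 177 ± 20.9 CPM in hac1-2 and 95.03 ± 7.41 CPM in hac1-1 (SD, n = 3 each), 1.86-fold higher in hac1-2 (log2 fold change 0.90, SE 0.11, edgeR adjusted p = 1.78e-05). ZAT7 averaged 32.2 ± 1.84 CPM in hac1-2 and 19.2 ± 2.999 CPM in hac1-1, 1.67-fold higher in hac1-2 (0.74, SE 0.15, edgeR adjusted p = 0.00454). Both calls held in all 20 other settings. Both genes also fell in hac1-1 against WT, and 1.24% of all genes were called in both ways.

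The hac1-2 libraries lay above all hac1-1 libraries for 5 members (ZAT6, ZAT7, ZAT8, ZAT12 and AZF1), as did 9.85% of all genes, and below them for ZAT5, as did 8.36%. AZF1 was 0.80 higher in hac1-2 on the log2 scale (edgeR adjusted p = 0.0501, SE 0.23) and ZAT8 0.67 higher (edgeR adjusted p = 0.0609, SE 0.20), both just outside the threshold. AZF1 was called in 8 of 20 other settings, among them without hac1-1 replicate 3 (log2 fold change 1.10, edgeR adjusted p = 0.014), without hac1-2 replicate 1 (0.0428) and without WT replicate 2 (0.0439). ZAT8 was called in 2 of them. The other members gave 0.31 for ZAT6 (edgeR adjusted p = 0.121), 0.23 for AZF2 (0.379), 0.21 for ZAT10 (0.429), -0.43 for ZAT5 (0.257) and -0.70 for AZF3 (0.712). As a share of the log2 shift in hac1-1, the log2 shift in hac1-2 was 20.9% for ZAT12 and 24.7% for AZF1, and 52.7 to 67.9% for ZAT6, ZAT10, ZAT7, AZF2 and ZAT8. The uncalled AZF3 went further below WT in hac1-2 (178% of its hac1-1 shift), and the uncalled ZAT5 had opposite signs in the 2 mutants (-111%). Among all these members only ZAT6, ZAT7 and ZAT8 were called in hac1-2. The shares rest on shared WT libraries and have no error estimate, so they do not separate groups of members.

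Genes known to act before the ZAT genes included several that were lower in both mutants. The list held MPK3, MPK6, MKK4, MKK5, HSFA4A, WRKY33, CAMTA3, RBOHD, ERF6 and ERF5, and all 10 were tested. In hac1-1, 5 fell and none rose, with a median log2 fold change of -0.35, and in hac1-2, 4 fell and none rose, with a median of -0.34, against 0.02 for all genes in each. The shares of all tested genes called lower were 9.12% in hac1-1 and 7.44% in hac1-2. RBOHD, the oxidase that makes superoxide outside the cell during stress signalling, averaged 90.9 ± 14.5 CPM in hac1-1, 91.5 ± 2.50 CPM in hac1-2 and 184 ± 19.0 CPM in WT (SD, n = 3 each). Its log2 fold changes were -1.02 in hac1-1 (edgeR adjusted p = 5.68e-07) and -1.01 in hac1-2 (edgeR adjusted p = 9.39e-07).

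ERF5 and ERF6, ethylene response factors that are phosphorylated by MAP kinases, also fell in both mutants. ERF6 averaged 134 ± 7.67 CPM in hac1-1, 179 ± 7.97 CPM in hac1-2 and 309 ± 21.3 CPM in WT, with log2 fold changes of -1.20 (edgeR adjusted p = 3.56e-09) in hac1-1 and -0.79 (edgeR adjusted p = 4.43e-06) in hac1-2. ERF5 averaged 295 ± 29.7 CPM in hac1-1, 422 ± 32.8 CPM in hac1-2 and 678 ± 36.8 CPM in WT, with log2 fold changes of -1.20 (edgeR adjusted p = 4.92e-09) in hac1-1 and -0.68 (edgeR adjusted p = 4.78e-05) in hac1-2. Both were also called higher in hac1-2 than in hac1-1, by 0.52 for ERF5 (edgeR adjusted p = 0.00572) and 0.41 for ERF6 (edgeR adjusted p = 0.0288). The ERF6 difference was lost without hac1-1 replicate 1 or 3 (edgeR adjusted p = 0.0954 and 0.111) or without hac1-2 replicate 1, 2 or 3 (0.0588, 0.0723 and 0.146), and that of ERF5 without hac1-1 replicate 3 (0.0539).

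WRKY33, a pathogen and stress response factor, fell in hac1-1 (log2 fold change -0.46, edgeR adjusted p = 0.00165) and in hac1-2 (-0.53, edgeR adjusted p = 0.000428). MPK3, a stress-activated MAP kinase, fell in hac1-1 (-0.43, edgeR adjusted p = 0.0143) and was not called in hac1-2 (-0.35, edgeR adjusted p = 0.0603). The MPK3 call in hac1-1 was lost without hac1-1 replicate 3 (edgeR adjusted p = 0.0614), without WT replicate 2 (0.058) and on the 3 FPKM scales (0.0699 to 0.074 by limma). In hac1-2 MPK3 gained a call in 6 of the 20 settings, with DESeq2 (adjusted p = 0.0499), with limma-voom (0.0393), without a filter (edgeR adjusted p = 0.0439), with the replicate number as a block (0.019), without hac1-1 replicate 2 (0.0481) and without hac1-2 replicate 1 (0.00915).

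The corepressors that EAR motifs recruit, TPL, TPR1, TPR2, TPR3, TPR4, SAP18 and the histone deacetylase HDA19, gave 0 of 7 calls in hac1-1 and 1 in hac1-2. Among all tested genes, 12.6% were called in hac1-1 and 10.3% in hac1-2, in either direction, so these counts are near the general share. TPR3 averaged 16.1 ± 2.49 CPM in hac1-1, 10.4 ± 1.27 CPM in hac1-2 and 17.5 ± 2.30 CPM in WT, and fell by 0.74 on the log2 scale in hac1-2 (edgeR adjusted p = 0.0116). That call was lost without hac1-2 replicate 2 or 3 (edgeR adjusted p = 0.0552 and 0.0607), without WT replicate 2 (0.0672) and on the 3 FPKM scales (0.107 to 0.121 by limma). TPR1 gained a call in hac1-2 in 4 of the 20 other settings, with DESeq2 (adjusted p = 0.0483), with only the groups compared (edgeR adjusted p = 0.0471), with the replicate number as a block (0.0414) and without hac1-1 replicate 2 (0.0489). TPR2 gained one in hac1-2 in 3, with only the groups compared (edgeR adjusted p = 0.031), with the block (0.0281) and without hac1-1 replicate 2 (0.0345), and in hac1-1 in 1, without hac1-1 replicate 2 (0.0356). All of these were lower in the mutant.

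Of 13 genes reported downstream of ZAT or AZF factors, in stress defence, jasmonate synthesis, metal handling and cold response, 12 were tested and APX2 was not. In hac1-1, 3 fell (LOX3, LOX2 and CBF2) and 2 rose (RD29A and COR15A), with a median log2 fold change of -0.03 against 0.02 for all genes. In hac1-2, 1 fell (LOX3) and 5 rose (RD29A, COR15A, CBF1, CBF3 and FSD1), with a median of 0.11 against 0.02. Called higher among all tested genes were 3.51% in hac1-1 and 2.85% in hac1-2, and called lower were 9.12% and 7.44%. RD29A, a gene induced by drought, cold and abscisic acid, averaged 3105 ± 396 CPM in hac1-1, 2969 ± 43.7 CPM in hac1-2 and 1351 ± 39.4 CPM in WT. It was 2.30-fold higher in hac1-1 (edgeR adjusted p = 2.1e-09) and 2.20-fold higher in hac1-2 (edgeR adjusted p = 7.48e-09). COR15A, which encodes a cold-induced chloroplast protein, averaged 288 ± 23.5 CPM in hac1-1, 312 ± 6.25 CPM in hac1-2 and 177 ± 6.23 CPM in WT, with log2 fold changes of 0.70 (edgeR adjusted p = 1.81e-05) in hac1-1 and 0.82 (edgeR adjusted p = 2.48e-06) in hac1-2.

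LOX3, a lipoxygenase of jasmonate synthesis, fell in hac1-1 (142 ± 24.7 CPM, log2 fold change -0.93, edgeR adjusted p = 4.41e-06) and in hac1-2 (158 ± 22.7 CPM, -0.77, edgeR adjusted p = 8.17e-05), against 269.6 ± 14.7 CPM in WT. LOX2, another such lipoxygenase, fell in hac1-1 (-0.40, edgeR adjusted p = 0.00909), a call that was lost without WT replicate 1 (0.0753), and was not called in hac1-2 (-0.25, edgeR adjusted p = 0.139). CBF1, CBF2, CBF3, cold response activators, and FSD1, an iron superoxide dismutase, are named after their values were seen. Of the 20 other settings, 1 removed the CBF1 call in hac1-2 (without hac1-2 replicate 3, edgeR adjusted p = 0.0594), 4 that of CBF3 and 5 that of FSD1 in hac1-2, and 14 that of CBF2 in hac1-1. The CBF2 call was lost without any single library except WT replicate 2 (edgeR adjusted p between 0.0521 and 0.185). The CBF3 call was lost without hac1-2 replicate 2 (edgeR adjusted p = 0.098) or 3 (0.218) and without WT replicate 1 (0.185) or 3 (0.0919). The FSD1 call was lost without hac1-2 replicate 1 (edgeR adjusted p = 0.151) or 2 (0.0673) and without WT replicate 1 (0.0656), 2 (0.0642) or 3 (0.0696).

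**Figure D4:**
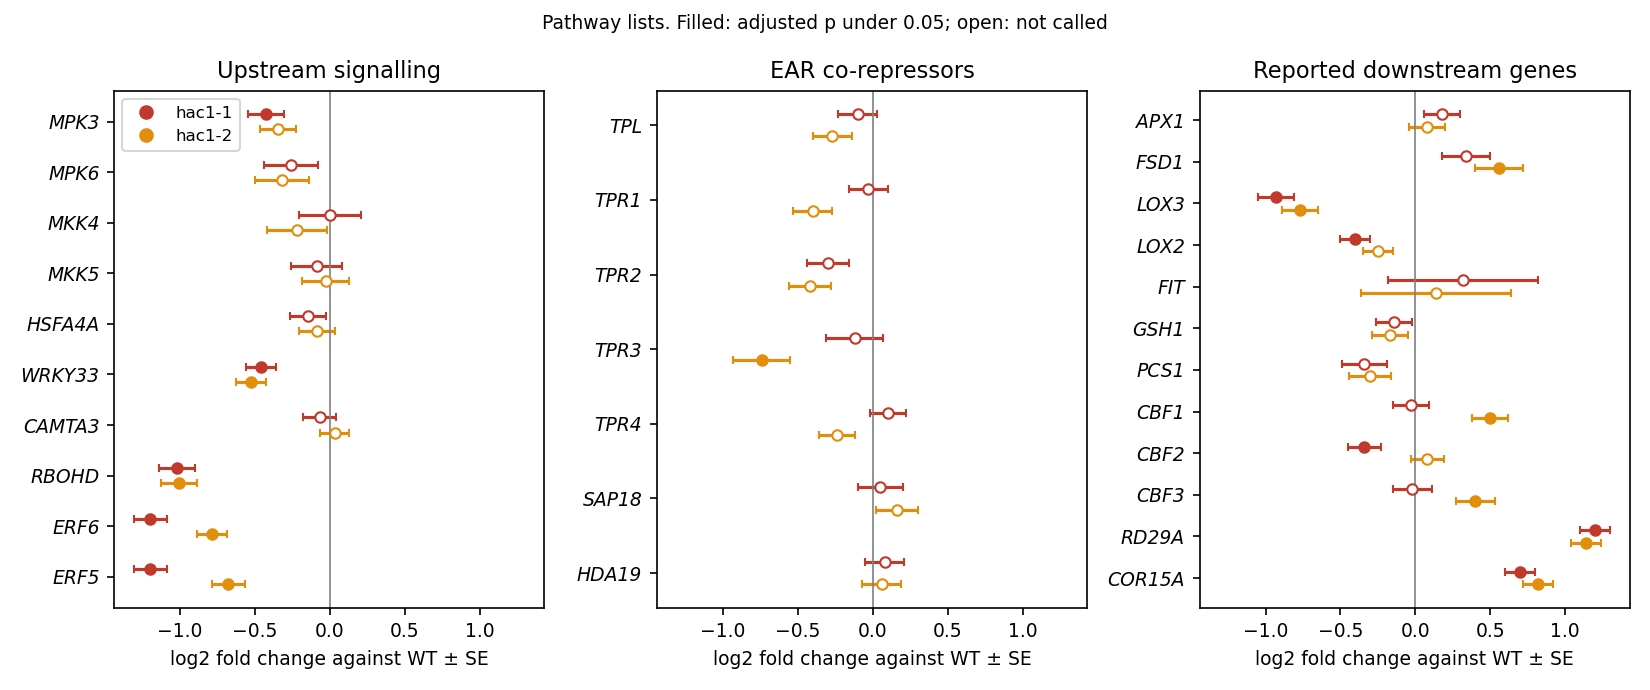
Log2 fold change against WT ± SE for hac1-1 and hac1-2, for genes upstream of the ZAT genes, EAR corepressors and reported downstream genes; filled points have an edgeR adjusted p under 0.05. RBOHD, ERF5 and ERF6 lie to the left in both mutants, and RD29A and COR15A to the right.

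The genes whose levels across the 9 libraries were most like the mean standardised profile of the members were AT5G35735 (r = 0.991), GGT1 (0.987), GPAT2 (0.987), AT3G10720 (0.986), AT2G32880 (0.983) and WRKY53 (0.983). They were ranked among 12832 genes, and the 9 points share their genotype within each group of 3, so r describes the likeness and carries no test. WRKY53, a WRKY factor of early leaf senescence, averaged 59.5 CPM in hac1-1, 79.97 CPM in hac1-2 and 134 CPM in WT. GGT1, a photorespiratory aminotransferase, averaged 345 CPM in hac1-1, 401 CPM in hac1-2 and 582 CPM in WT.

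Markers of cell types within the leaf also differed between the genotypes. The 3 phloem markers (SUC2, APL and SEOR1) summed to 59.1 to 66.5 CPM in hac1-1, 62.2 to 69.7 CPM in hac1-2 and 92.8 to 103 CPM in WT. Both mutants thus lay below WT in this sum. SUC2 carried most of the sum and was the only one of the 3 called, at 53.2 ± 3.64 CPM in hac1-1 (log2 fold change -0.63, edgeR adjusted p = 0.000473), 53.3 ± 5.07 CPM in hac1-2 (-0.62, edgeR adjusted p = 0.000626) and 82.2 ± 7.17 CPM in WT (SD, n = 3 each). APL (-0.57 in hac1-1 and -0.46 in hac1-2) and SEOR1 (-0.24 in hac1-1 and 0.01 in hac1-2) overlapped WT in both mutants and were not called. The 3 guard cell markers (MYB60, KAT1 and FAMA) summed to 37.2 to 42.8 CPM in hac1-1, 30.1 to 34.1 CPM in hac1-2 and 43.4 to 54.6 CPM in WT. Here too both mutants lay below WT. None of the guard cell markers was called in hac1-1, and MYB60 (-1.17, edgeR adjusted p = 0.00725) and FAMA (-0.60, edgeR adjusted p = 0.0163) fell in hac1-2. The 2 epidermis markers (ATML1 and FDH) summed to 111 to 131 CPM in hac1-1, 124 to 158 CPM in hac1-2 and 93.6 to 116 CPM in WT. Trichome markers stayed at or below 4.27 CPM and xylem markers at or below 3.23 CPM in every library. The part of these markers in the results for the ZAT and AZF genes was not tested.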

How the data were processed

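Libraries were made from total leaf RNA with BrAD-seq, a strand-specific method, per the labels' protocols. The first table deposited by the authors holds raw counts of 33323 genes on build TAIR10, per the submitters' processing notes. How reads were aligned and counted, on which strand and with which annotation, is not given in the sources used here. A second table deposited by the authors holds FPKM for 18168 genes. Its values follow from the counts, the library totals and gene lengths that came out whole (tolerance 0.001). Every gene in that table reaches at least 1.0001 FPKM in some library.

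Counts were tested with edgeR 4.0.16 in R 4.3.3 (genes kept by filterByExpr at a minimum of 10 counts, TMM scaling, quasi-likelihood fit of all 9 libraries by genotype), with Benjamini-Hochberg adjustment over 16560 genes. The coefficient of biological variation was 13.7%. Intervals are the log2 fold change ± 1.96 SE. Replicate libraries differed by more than sampling noise, with a chi-square per degree of freedom of 5.43 to 15.5, so none was counted as a duplicate. Alternatives used RLE factors, library totals alone, DESeq2 1.42.0, limma 3.58.1 with voom, no filter, at least 1 CPM in 3 libraries, only the groups compared, the replicate number as a block, limma on log2(FPKM + 1) and log2(FPKM + 0.1) and with a mean FPKM of at least 1, and each library left out. The scripts were tested on simulated counts.

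The files give no coordinates. Of the gene identifiers, 32835 matched TAIR10.1, which supplied positions and sequences (Biopython 1.88), and copies were searched with BLAST 2.17.0. Figures were drawn with matplotlib 3.10.9 in Python 3.11.15. The named genes are the 10 members, HAC1, the listed pathway genes (up to 4 per list by smallest adjusted p, others only where stated) and the 6 genes of most similar profile with a mean of at least 5 CPM. Members, lists and tests were chosen with earlier results of these data known. No promoter data on histone marks were analysed here.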

Additional observations from a re-analysis of the deposited data

Results flagged for a closer look

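ZAT12 and ZAT7 were flagged because the 2 mutants differed from each other in a direct test, although both carry an insertion in HAC1. In hac1-2 against hac1-1, the log2 fold change was 0.90 for ZAT12 (edgeR adjusted p = 1.78e-05) and 0.74 for ZAT7 (edgeR adjusted p = 0.00454). All 3 hac1-2 libraries lay above all 3 hac1-1 libraries for each gene. HAC1 counts also differed between the mutants, by 1.05 on the log2 scale (edgeR adjusted p = 3.33e-06), and were higher in hac1-2. The part of HAC1 transcript level in the differences of ZAT12 and ZAT7 was not tested.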

How the results depend on the processing

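Over 20 alternative settings the number of members called in hac1-1 against WT was 7 throughout, also with each library left out (7 to 7). In hac1-2 against WT it ranged from 2 to 4 around the 3 reported. In hac1-2 against hac1-1 it was 4 instead of 2 without a filter and with the replicate number as a block, and 2 to 3 with a library left out. ZAT8 (adjusted p = 0.0179 and 0.0281 in these edgeR fits) and AZF1 (0.0102 and 0.0208) were the additions, and the cause was not tested. Of the single-member results, 518 kept their direction and call, 12 gained a call, 8 lost one and 0 reversed.

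The count of all genes called in hac1-2 against hac1-1, 470, was 721 without a filter, 715 with the replicate block, and 252, 241 and 260 on log2(FPKM + 1), log2(FPKM + 0.1) and log2(FPKM + 1) with a mean FPKM of at least 1. With a library left out it ran from 204 to 548, falling to 240 without hac1-1 replicate 3, to 249 without hac1-2 replicate 2 and to 204 without hac1-2 replicate 3. Left-out ranges were 1560 to 2042 for hac1-1 against WT and 1203 to 1974 for hac1-2 against WT. Deviations of same-numbered libraries correlated at 0.006 to 0.122 across genes, not above 0.1 in every pair. Differently numbered libraries of different genotypes gave -0.085 to 0.027. A pairing by number was therefore not shown, and its absence was not shown either. With the replicate block, 2511 genes were called in hac1-1 against WT, against 2092 without it. In hac1-2 against WT these counts were 2054 and 1704. With few counts, AZF3 and ZAT11 are limited by depth.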

Other observations

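The other C2H2 genes that were listed as related to the members were scarce in these leaves, and the rest of the family was not examined. Of 9 such genes listed (ZAT4, ZAT9, ZAT18, DAZ1, DAZ2, AT1G02030, AT5G03510, AT2G28710 and AT3G49930), 2 passed the count filter, AT2G28710 and AT3G49930, and neither was called in any comparison. ZAT9 had 10 counts over the hac1-1 libraries, 11 over hac1-2 and 25 over WT. ZAT4 had 5 counts over the hac1-1 libraries, 21 over hac1-2 and 20 over WT. DAZ2 had 0 counts in every library.

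When the first 50 transcribed bases were added to the upstream window, CACGTG was found in ZAT6, ZAT10 and AZF2, against 7.7% of promoters extended in the same way, and TTGAC in 9 of the 10 genes, against 50.5%.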
